A study of Homo sapiens with 9 samples.

Results

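The genes described here are 40 genes of glycolysis and of the response to low oxygen, chosen by name: 17 glycolytic enzymes, 6 genes of glucose uptake and of control over flux, 14 other targets of hypoxia-inducible factors and 3 subunits of those factors. Of these, 39 had a probe of that symbol on the arrays, and 37 were tested among 12498 genes. Each of the 37 was detected on all 9 arrays, so the filter on dim probes did not select among them. The glucose transporter gene SLC2A3 was detected on 0 arrays and the pyruvate dehydrogenase kinase gene PDK1 on 2 of 9, and CA9 had no probe in the annotation used here. RNA came from BON-1 cells, a line grown from a human pancreatic neuroendocrine tumour, and was read on Illumina HumanHT-12 v4 BeadChips. The groups were cells with a control vector, cells with RABL6A shRNA 1 and cells with RABL6A shRNA 2, with 3 arrays each, and the labels place the shRNA constructs in the lentiviral vector pLKO.1. RABL6A is a product of RABL6, which encodes a RAB-like GTPase. One growth protocol, in medium with serum, is given for all groups, and the labels name no low-oxygen treatment.

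Glycolysis splits glucose into pyruvate in the cytosol, and lactate dehydrogenase converts pyruvate into lactate. When oxygen is low, prolyl hydroxylases of the EGLN family stop marking the alpha subunits HIF1A and EPAS1 (HIF-2 alpha) for destruction by the VHL ubiquitin ligase. Each alpha subunit then pairs with ARNT and binds short response elements in genes for glucose transport, glycolysis, blood vessel growth, pH control, collagen hydroxylation and mitophagy. Many of the same glycolytic genes are also bound by MYC at E-boxes, whose letters overlap with those of the response element.

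The response element core is ACGTG or GCGTG, and it was searched on both strands in the 250 bases before each transcription start in the RefSeq promoter table (GRCh38.p14). For the 36 members found there, 60 windows were searched, because several genes have more than 1 start, and windows of 1 gene can overlap. A core was present in 36 of 60 windows (60%), against 43.2% of all 35116 windows. It was in 19 of 37 windows of glycolytic enzymes (51.4%) and in 10 of 12 windows of other hypoxia targets (83.3%). These shares count starts and not genes. HK1 and PFKM have many starts, most without a core, and the core of KDM3A falls in overlapping windows. By gene, a core was in some window of every enzyme but LDHB, PGAM1 and PKM. Among the other targets found there, all but EGLN3 and P4HA2 had a core. The enzymes had more windows per gene, 37 for 17 genes against 12 for 11, and a share by gene over all promoters was not taken. Neither count is thus a comparison of the 2 roles. The windows of 7 genes are printed because the results below turn on these genes: ANGPTL4, BNIP3 and EPAS1 changed, LDHA shows a promoter rich in cores beside a level that was not called, and ALDOC, PFKFB4 and CA12 divided the knockdown arrays. Capitals mark each core, with CACGT and CACGC being the cores read on the other strand, and CACGTG, which is also the E-box bound by MYC, holding ACGTG on both strands.
ANGPTL4, chr19:8363905-8364154, plus strand: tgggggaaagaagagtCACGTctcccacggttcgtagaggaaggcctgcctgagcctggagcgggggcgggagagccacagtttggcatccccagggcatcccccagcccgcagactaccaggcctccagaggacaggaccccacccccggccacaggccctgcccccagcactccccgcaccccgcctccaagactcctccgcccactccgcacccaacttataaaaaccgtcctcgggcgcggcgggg
BNIP3, chr10:131981924-131982173, minus strand: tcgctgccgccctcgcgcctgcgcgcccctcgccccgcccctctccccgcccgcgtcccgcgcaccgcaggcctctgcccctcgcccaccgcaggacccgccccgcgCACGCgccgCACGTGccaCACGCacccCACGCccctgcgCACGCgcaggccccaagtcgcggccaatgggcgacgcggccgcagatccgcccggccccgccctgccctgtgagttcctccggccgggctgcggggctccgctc
EPAS1, chr2:46297157-46297406, plus strand: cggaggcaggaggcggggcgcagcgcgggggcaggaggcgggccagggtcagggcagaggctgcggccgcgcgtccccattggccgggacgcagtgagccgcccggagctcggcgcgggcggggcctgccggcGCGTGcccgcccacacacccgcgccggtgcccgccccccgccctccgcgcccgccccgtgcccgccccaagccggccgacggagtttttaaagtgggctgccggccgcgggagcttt
LDHA, chr11:18394313-18394562, plus strand: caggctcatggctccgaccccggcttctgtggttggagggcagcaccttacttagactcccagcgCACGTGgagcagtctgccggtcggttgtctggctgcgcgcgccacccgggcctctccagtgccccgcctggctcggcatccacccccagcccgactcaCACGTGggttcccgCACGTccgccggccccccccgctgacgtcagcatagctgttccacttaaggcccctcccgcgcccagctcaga
ALDOC, chr17:28576896-28577145, minus strand: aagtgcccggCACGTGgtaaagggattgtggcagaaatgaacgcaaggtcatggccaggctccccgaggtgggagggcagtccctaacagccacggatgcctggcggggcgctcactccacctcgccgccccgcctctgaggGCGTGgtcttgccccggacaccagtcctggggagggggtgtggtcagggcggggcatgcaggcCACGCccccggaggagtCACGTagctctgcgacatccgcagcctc
PFKFB4, chr3:48556804-48557053, minus strand: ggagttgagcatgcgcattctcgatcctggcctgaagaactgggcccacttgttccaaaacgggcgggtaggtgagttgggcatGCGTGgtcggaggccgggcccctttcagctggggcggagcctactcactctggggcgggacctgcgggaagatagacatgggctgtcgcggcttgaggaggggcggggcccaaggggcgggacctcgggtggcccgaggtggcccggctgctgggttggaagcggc
CA12, chr15:63381847-63382096, minus strand: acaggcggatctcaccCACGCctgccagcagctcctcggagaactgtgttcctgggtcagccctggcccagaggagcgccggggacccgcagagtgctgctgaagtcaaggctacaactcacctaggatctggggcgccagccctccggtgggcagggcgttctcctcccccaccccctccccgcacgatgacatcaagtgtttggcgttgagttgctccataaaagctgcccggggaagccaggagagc

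The ANGPTL4 window held 1 core and the LDHA window shown held 5 on the 2 strands together, while BNIP3 held 6, ALDOC 5 and PFKFB4, CA12 and EPAS1 1 each. A match of letters is a description of these windows and no evidence of binding.

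With the shRNAs the RABL6 signal fell by 1.99 log2 units (SE 0.19, limma adjusted p = 0.0014), and all 6 knockdown arrays lay below all 3 vector arrays. The arrays had median raw signals of 119 to 129 and 19565 to 21201 detected probes. The profiles did not follow the shRNA labels: across genes, shRNA 1 replicate 2 correlated at 0.994 with shRNA 2 replicate 1 but at 0.933 with shRNA 1 replicate 1, and shRNA 2 replicate 2 correlated at 0.995 with shRNA 1 replicate 1 but at 0.933 with shRNA 2 replicate 1. Results are given by the labels on 9 arrays and again on 7 arrays, with replicate 2 of each shRNA left out, which was decided once these correlations were known. If labels were exchanged on the arrays that were kept, the 7-array values of the 2 shRNAs trade places. All 8 neuroendocrine markers were detected and tested, with a median change of -0.46 on 9 arrays. Of these 2 fell, INSM1 (fell by 1.00) and SLC18A1 (fell by 2.06), beside 8.09% of all genes lower. The chromogranin genes CHGA (0.13) and CHGB (-0.08), and SYP (-0.31) and SCG3 (-0.28), were called neither on 9 arrays nor on 7. SCG2 lay below vector on all 6 knockdown arrays without a call (-0.61, limma adjusted p = 0.119). On 7 arrays 4 fell, with SCG2 (-0.55) and TPH1 (-0.87) added, beside 20.5% of all genes lower. The summed raw signal of the 8 markers was 69500 to 71900 with vector, 51500 to 61000 with shRNA 1 and 49800 to 60000 with shRNA 2. SCG2 alone had raw signals of 10400 to 24500 over all arrays. Of 4 endothelial markers PECAM1 and CDH5 were detected on 0 arrays, whereas KDR, a VEGF receptor, rose by 1.00 (SE 0.15), with raw signals of 134 to 184. VWF, detected on 5 arrays, was at 0.50 (adjusted p = 0.586) and was called on 7 arrays (adjusted p = 0.0223). It read 6.61, 6.93 and 6.59 on shRNA 1 replicates 1 and 3 and shRNA 2 replicate 2, and 4.60 to 4.73 on the other knockdown arrays, the same arrays being high as for CA12 and ARNT below. The summed signal of the 4 was 499 to 508, 544 to 598 and 510 to 590 in the same order of groups. Of the leukocyte markers 2 of 5 were tested, of the fibroblast markers 0 of 5 and of the exocrine pancreas markers 3 of 5, and 0 were called on 9 arrays. PTPRC, CD3E, COL3A1, LUM, CPA1 and PNLIP were detected on 0 arrays. On 7 arrays PRSS1 was called at -0.54 (limma adjusted p = 0.0113) and AMY2A, a dim gene, at 0.36 (0.0253). The exocrine sum was 1210 to 1310, 842 to 1200 and 830 to 1280, that of leukocyte markers 504 to 548 and that of fibroblast markers 567 to 632 over all arrays. The part of these markers in the results was not tested. In RNA from whole cultures, fewer cells of a kind and less RNA per cell cannot be told apart.

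Both shRNAs were first compared jointly with vector, which asks what changed on average with RABL6A knockdown. HK2, ENO2 and LDHB among the glycolytic enzymes and VEGFA, ANGPTL4 and BNIP3 among the other hypoxia targets rose, while PFKFB3, which drives glycolytic flux, and the HIF-2 alpha gene EPAS1 fell. These are 8 of 37 members, 6 higher and 2 lower, beside 16.6% of all genes tested that were called by limma at an adjusted p under 0.05 (8.54% higher and 8.09% lower). Fold changes are on a log2 scale after background correction with an offset of 16, which understates the changes of dim genes. On 7 arrays 21 members were called, 16 higher and 5 lower, among them all 8, beside 41.2% of all genes. Leaving out vector replicate 1, 2 or 3 left 4, 3 or 2 called members, and leaving out shRNA 1 replicate 2 gave 12. Median centring of the arrays called 2 members higher and 2 lower.

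**Figure D1:**
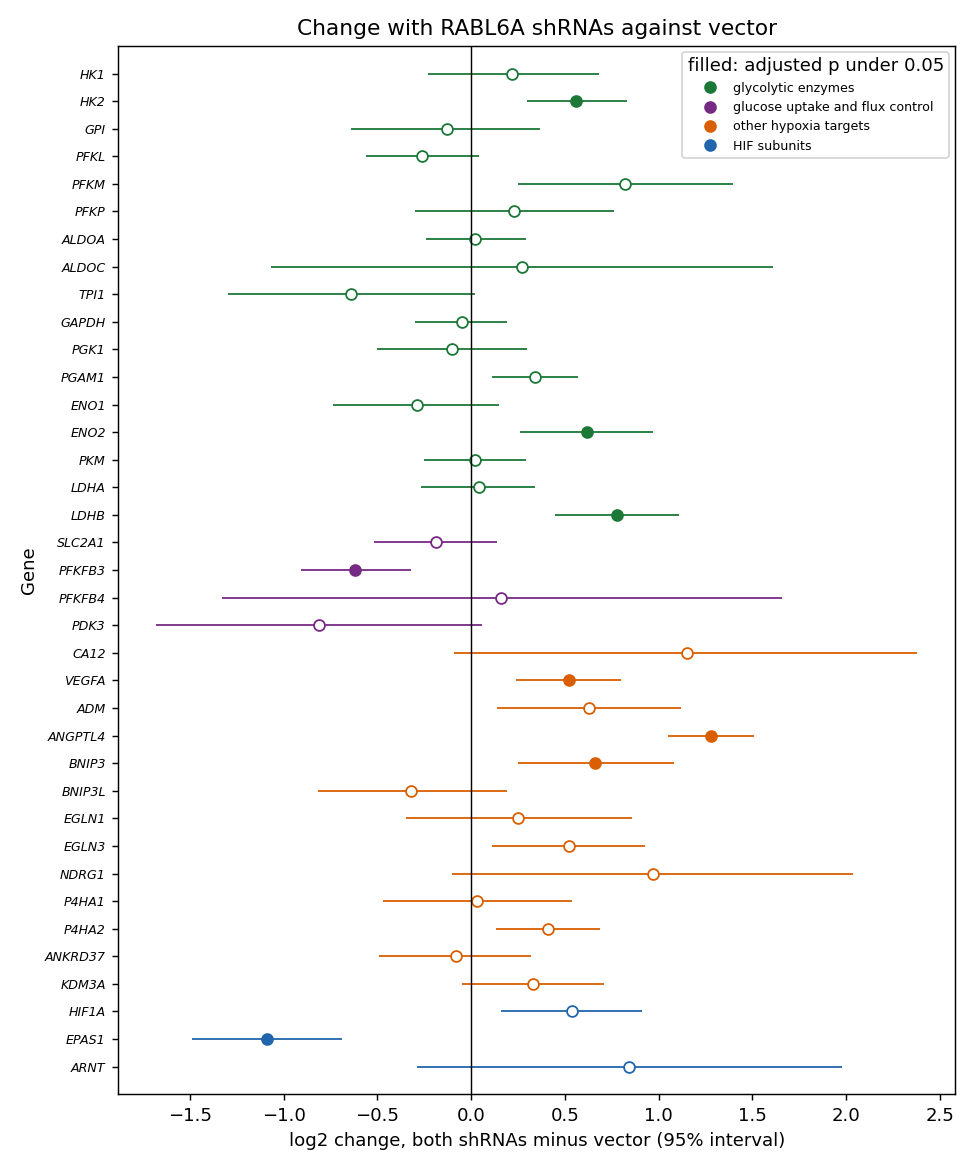
Log2 change (horizontal axis, both shRNAs minus vector) of each of 37 genes, coloured by role, with bars for the 95% interval of the limma fit and filled points for an adjusted p under 0.05. ANGPTL4 at 1.28 and EPAS1 at -1.09 are the filled points farthest to the right and left, and the bars of PFKFB4, ALDOC, CA12, ARNT and NDRG1 are wide.

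Members of the 2 main roles are set side by side here, without a test between roles. The 17 glycolytic enzymes had a median change of 0.04, from -0.64 (TPI1) to 0.82 (PFKM), beside a median of 0.03 over all genes tested. The 13 tested hypoxia targets outside glycolysis had a median of 0.52, from -0.32 (BNIP3L) to 1.28 (ANGPTL4), with 11 of 13 above 0. With median centring the medians were -0.11 for the enzymes, 0.36 for the other targets and -0.08 for all genes, so the sign of the enzymes' median, and its side of the median of all genes, depend on the scaling, while that of the other targets was above both under each scaling run. On single arrays the median of the enzymes lay between 0.02 and 0.16 above the vector mean, and that of the other targets between 0.32 and 0.53.

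**Figure D2:**
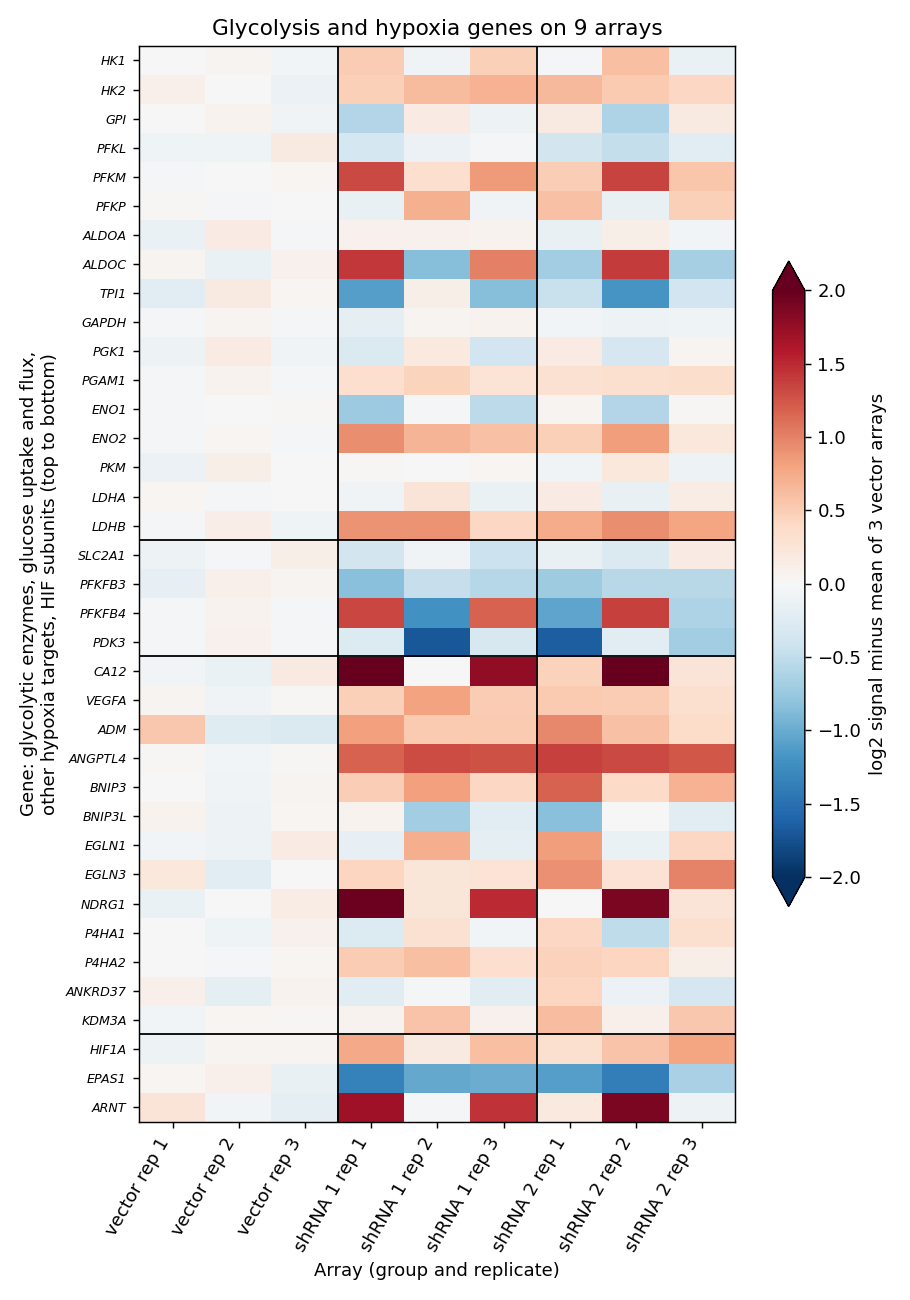
Log2 signal minus the mean of the 3 vector arrays (colour, cut at 2 in either direction) for 37 genes (rows, by role, with lines between roles) on 9 arrays (columns). ANGPTL4 is red and EPAS1 blue on all 6 knockdown arrays, while CA12, NDRG1 and ARNT are strongly red on only shRNA 1 replicates 1 and 3 and shRNA 2 replicate 2.

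ANGPTL4, a secreted inhibitor of lipoprotein lipase induced by fasting and by hypoxia, read 8.30, 8.22 and 8.30 (log2 signal) on the vector arrays. It read 9.45, 9.58 and 9.54 with shRNA 1 and 9.64, 9.59 and 9.51 with shRNA 2. All knockdown arrays lay in a narrow band above all vector arrays, and neither the shRNA label nor the replicate number set any array apart. The rise was 1.28 (SE 0.10, limma adjusted p = 0.000932), or 2.43-fold, and it was called with each shRNA alone, by 1.25 and 1.31. Its dimmer probes ILMN_1674376 and ILMN_2386444, with raw signals of at most 204, each changed by 0.42 and were not called (adjusted p = 0.0601 and 0.0669 in a fit of all probes).

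VEGFA, the main growth factor of blood vessels, read 7.07, 6.95 and 7.04 on the vector arrays, 7.49, 7.82 and 7.52 on those of shRNA 1 and 7.55, 7.53 and 7.34 on those of shRNA 2. BNIP3, a mitochondrial protein that promotes mitophagy, read 11.16, 11.09 and 11.21 on the vector arrays, 11.64, 11.98 and 11.57 on those of shRNA 1 and 12.33, 11.53 and 11.85 on those of shRNA 2. Groups did not overlap for either gene, and the BNIP3 values spread more widely among the knockdown arrays. VEGFA rose by 0.52 (SE 0.12, limma adjusted p = 0.0229) and BNIP3 by 0.66 (SE 0.18, limma adjusted p = 0.0396). Neither call held without any 1 of the vector replicates (adjusted p = 0.0849 to 0.114 for VEGFA and 0.124 to 0.151 for BNIP3) or with median centring (0.0992 and 0.108). BNIP3 also lost its call without shRNA 1 replicate 1 or 3 or shRNA 2 replicate 1 or 3 (0.0501 to 0.065), with cyclic loess (0.0506) and with the replicate block (0.0937). VEGFA lost it with the replicate block (0.0618) and with its dimmer probe ILMN_1803882, at 0.45 (0.152). The BNIP3 relative BNIP3L, also a mitophagy receptor, was at -0.32 with an interval from -0.82 to 0.19.

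The remaining hypoxia targets were not called on 9 arrays. EGLN3, P4HA2 and KDM3A had all 6 knockdown arrays above all 3 vector arrays. EGLN3, a HIF prolyl hydroxylase that HIF itself induces, was at 0.52 (adjusted p = 0.0862) and read 7.33, 6.89 and 7.12 with vector against 7.54, 7.35 and 7.39 with shRNA 1 and 8.02, 7.40 and 8.10 on the shRNA 2 arrays. The collagen prolyl hydroxylase subunit gene P4HA2 was at 0.41 (adjusted p = 0.0541), and its second probe, ILMN_2381697, was called at 0.52 in a fit of all probes (adjusted p = 0.0468). KDM3A, a histone demethylase, was at 0.33 (adjusted p = 0.207). ADM, the vasodilator peptide adrenomedullin, was at 0.63 (adjusted p = 0.0832), and vector replicate 1 at 11.92 lay within the knockdown values of 11.76 to 12.35 while the other vector arrays were at 11.14 and 11.10. P4HA1, the partner isoform of P4HA2, was at 0.03 with an interval from -0.47 to 0.54, a mean over unlike arrays. It read 10.85, 10.96 and 10.87 on shRNA 1 replicate 2 and shRNA 2 replicates 1 and 3. On the vector arrays it read 10.46 to 10.64, and on the other knockdown arrays 10.04 to 10.49. Its dim second probe, ILMN_1747442, was at 0.55 in the fit of all probes (adjusted p = 0.082) and called at 0.44 on 7 arrays (adjusted p = 0.0458). ANKRD37, an ankyrin repeat protein induced by HIF, was at -0.08 with an interval from -0.49 to 0.32. On 7 arrays 9 of the 13 were higher and 0 lower, beside 20.7% of all genes higher and 20.5% lower, and the 9 were CA12, VEGFA, ADM, ANGPTL4, BNIP3, EGLN3, NDRG1, P4HA2 and KDM3A. These are means over both shRNAs. CA12 and NDRG1 were not called with shRNA 2 (0.36 and 0.13, limma adjusted p = 0.121 and 0.587), nor KDM3A with shRNA 1 (0.08, 0.585). With each shRNA alone 3 of the 13 were called in the same direction, VEGFA, ANGPTL4 and BNIP3, beside 15.3% of all genes.

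**Figure D3:**
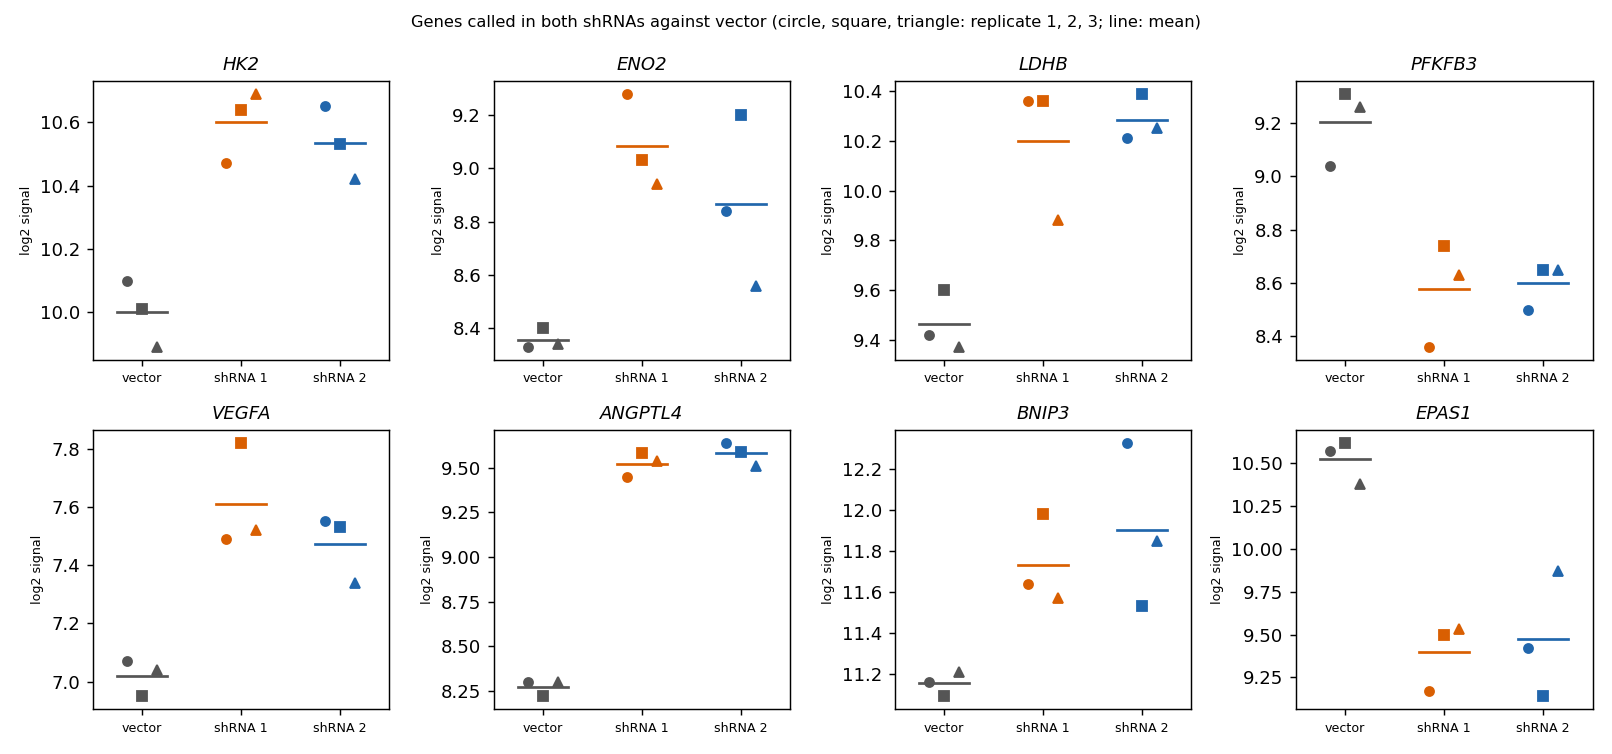
Log2 signal (vertical axis, a separate range in each panel that does not start at 0) of the 8 genes called with both shRNAs against vector, with 3 arrays per group as points and the group mean as a line. Every knockdown point lies above every vector point for 6 genes and below for PFKFB3 and EPAS1.

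Of the 17 glycolytic enzymes 3 were called, a share near the 16.6% of all genes called. On 7 arrays 5 of the 17 were higher and 2 lower, beside 20.7% of all genes higher and 20.5% lower. Each of the 3 called on 9 arrays is given beside an isoform of the same step that was not called there. HK2, the hexokinase isoform induced in many tumours, read 10.10, 10.01 and 9.89 on the vector arrays, 10.47, 10.64 and 10.69 on those of shRNA 1 and 10.65, 10.53 and 10.42 on those of shRNA 2. LDHB, the lactate dehydrogenase subunit of oxidative tissues, read 9.42, 9.60 and 9.37 on the vector arrays, 10.36, 10.36 and 9.88 on those of shRNA 1 and 10.21, 10.39 and 10.25 on those of shRNA 2. Both were higher on each knockdown array than on each vector array, HK2 by 0.56 (SE 0.12, limma adjusted p = 0.0144) and LDHB by 0.78 (SE 0.14, limma adjusted p = 0.0107). Their isoforms HK1, the widely expressed hexokinase, at 0.22 (interval from -0.23 to 0.68), and LDHA, the subunit that favours lactate formation, at 0.04 (interval from -0.27 to 0.34), were not called. HK1 was above the vector arrays only on shRNA 1 replicates 1 and 3 and shRNA 2 replicate 2. On those arrays LDHA was below vector, and on the other knockdown arrays above it. ENO2, the neuronal enolase used as a neuroendocrine marker, read 8.33, 8.40 and 8.34 on the vector arrays, 9.28, 9.03 and 8.94 on those of shRNA 1 and 8.84, 9.20 and 8.56 on those of shRNA 2, a rise of 0.62 (SE 0.16, limma adjusted p = 0.0312). The common enolase ENO1 was at -0.29 (interval from -0.74 to 0.15), with shRNA 1 replicates 1 and 3 and shRNA 2 replicate 2, at 13.08, 13.28 and 13.22, below the other arrays. On 7 arrays ENO1 was called at -0.29 (limma adjusted p = 0.0379). Differences between isoforms were not tested. HK2 lost its call without any 1 of the vector replicates (adjusted p = 0.0569 to 0.086) and with median centring (0.0507). Its second probe, ILMN_2156172, changed by 0.39 and was not called (adjusted p = 0.148). LDHB lost its call without vector replicate 1 or 3 (0.0595 and 0.0658). ENO2 lost it without any 1 of the vector replicates (0.11 to 0.122), without shRNA 1 replicate 1 or shRNA 2 replicate 1 (0.0629 and 0.0582), with median centring (0.101) and with the replicate block (0.061).

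The other steps of glycolysis held both near-level and uncalled genes. PGAM1, phosphoglycerate mutase, read 10.80, 10.92 and 10.81 on the vector arrays, 11.18, 11.29 and 11.11 on those of shRNA 1 and 11.15, 11.17 and 11.19 on those of shRNA 2. The groups did not overlap, but the difference of 0.34 (SE 0.10) missed the threshold (limma adjusted p = 0.0535). Its dimmer probe ILMN_1661366 was called at 0.46 in a fit of all probes (adjusted p = 0.036), and PGAM1 was called under 8 of 23 alternatives. GAPDH, the dehydrogenase often used as a reference gene, was at -0.05 (interval from -0.30 to 0.19), ALDOA, the main aldolase, at 0.02 (-0.24 to 0.29), PKM, pyruvate kinase, at 0.02 (-0.25 to 0.29), and PGK1, phosphoglycerate kinase, at -0.10 (-0.50 to 0.30). The probes of ALDOA disagreed: in the fit of all probes its dimmer probe ILMN_1736700 was at 0.60 (adjusted p = 0.169) and its dim probe ILMN_2251253, detected on 7 arrays, at -0.44 (adjusted p = 0.103), and on 7 arrays both were called, at 0.55 and -0.55 (adjusted p = 0.0184 and 0.009). The isomerase gene GPI was at -0.13 (-0.64 to 0.37). Of the phosphofructokinase subunits, PFKL was at -0.26 (-0.56 to 0.04) and PFKP at 0.23 (-0.30 to 0.76). GPI and PFKP were above all vector arrays on shRNA 1 replicate 2 and shRNA 2 replicates 1 and 3. On the other knockdown arrays both were below all vector arrays, so their means average opposite values. The intervals of GPI, PFKL and PFKP reach past the smallest called change in size, 0.52 for VEGFA. The brightest probes of a gene were used, and probes of GAPDH, PGK1, PGAM1, TPI1, LDHA and ENO1 may also read their processed pseudogenes, which was not tested.

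Of the 4 tested genes of glucose uptake and flux control, 0 were called higher and 1 lower, beside 8.54% of all genes higher and 8.09% lower. PFKFB3, which makes a sugar phosphate that activates phosphofructokinase, read 9.04, 9.31 and 9.26 on the vector arrays, 8.36, 8.74 and 8.63 on those of shRNA 1 and 8.50, 8.65 and 8.65 on those of shRNA 2. All 6 knockdown arrays lay below the vector arrays. It fell by 0.62 (SE 0.13, limma adjusted p = 0.0156), and it lost its call without vector replicate 2 or 3 (0.0885 and 0.0841). A second, dim probe of PFKFB3, ILMN_1660847, with raw signals of 152 to 177, changed by 0.07, so the fall rests on 1 probe. SLC2A1, the glucose transporter GLUT1 and a common HIF target, was at -0.19 (interval from -0.52 to 0.14).

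Among the 3 HIF subunits EPAS1 was called. It read 10.57, 10.62 and 10.38 on the vector arrays, 9.17, 9.50 and 9.53 on those of shRNA 1 and 9.42, 9.14 and 9.87 on those of shRNA 2, so that no knockdown array reached the vector values. The change was -1.09 (SE 0.18, limma adjusted p = 0.00672), or 0.47 of the vector level, and it was called with each shRNA, at -1.13 and -1.05. HIF1A read 9.66, 9.82 and 9.82 on the vector arrays, 10.52, 9.94 and 10.37 on those of shRNA 1 and 10.08, 10.34 and 10.56 on those of shRNA 2. It was above vector on all knockdown arrays and not called, at 0.54 (adjusted p = 0.0567), and its other probes ILMN_1681283 and ILMN_1763260 were at 0.34 and 0.42. On 7 arrays HIF1A was called at 0.62 (adjusted p = 0.00718). ARNT was at 0.84 with a wide interval, from -0.29 to 1.98. RNA levels of the alpha subunits do not report the amount of protein, which hydroxylation and VHL control.

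In all, 12 members had every knockdown array above every vector array and 3 had every one below, beside 15% and 14.2% of all genes tested. The 12 were HK2, PFKM, PGAM1, ENO2, LDHB, VEGFA, ANGPTL4, BNIP3, EGLN3, P4HA2, KDM3A and HIF1A, and the 3 were PFKFB3, PDK3 and EPAS1. Of the 8 called members, ANGPTL4 and EPAS1 were called under each of the 23 alternatives run, with changes of 1.05 to 1.30 and of -1.23 to -0.95.

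The next comparisons took each shRNA alone against the same 3 vector arrays, so they share those arrays and are not independent of each other. With shRNA 1, 7 members were called, beside 11.2% of all genes (5.6% higher and 5.56% lower): HK2, ENO2, LDHB, VEGFA and ANGPTL4 were higher and PFKFB3 and EPAS1 lower. With shRNA 2, 5 members were called, beside 8.65% of all genes (4.58% higher and 4.06% lower): HK2, LDHB and ANGPTL4 were higher and PFKFB3 and EPAS1 lower. The 5 genes called with shRNA 2 were among the 7 called with shRNA 1, beside 7.47% of all genes called in the same direction with each. Only ANGPTL4 kept its call in both comparisons without each single vector array and with the replicate block. The count with shRNA 1 was 1 without any 1 vector array or shRNA 1 replicate 1, and 3 without shRNA 1 replicate 3. The count with shRNA 2 was 1 without any 1 vector array or shRNA 2 replicate 1, and 3 without shRNA 1 replicate 3 or shRNA 2 replicate 3. On 7 arrays 20 members were called with shRNA 1 and 18 with shRNA 2, beside 43.9% and 35.3% of all genes.

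The last comparison set shRNA 2 against shRNA 1. By the labels 0 of 37 members and 0% of all genes were called by limma, and 0 members had an unadjusted p under 0.05 (96 of all genes did). The spread within each shRNA label was wide for 9 members, whose 6 knockdown values spanned over 1 log2 unit, beside 30.2% of all genes. These were PFKFB4, ALDOC, CA12, ARNT, NDRG1, PDK3, TPI1, EGLN1 and PFKM, taken up here after their values were seen.

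**Figure D4:**
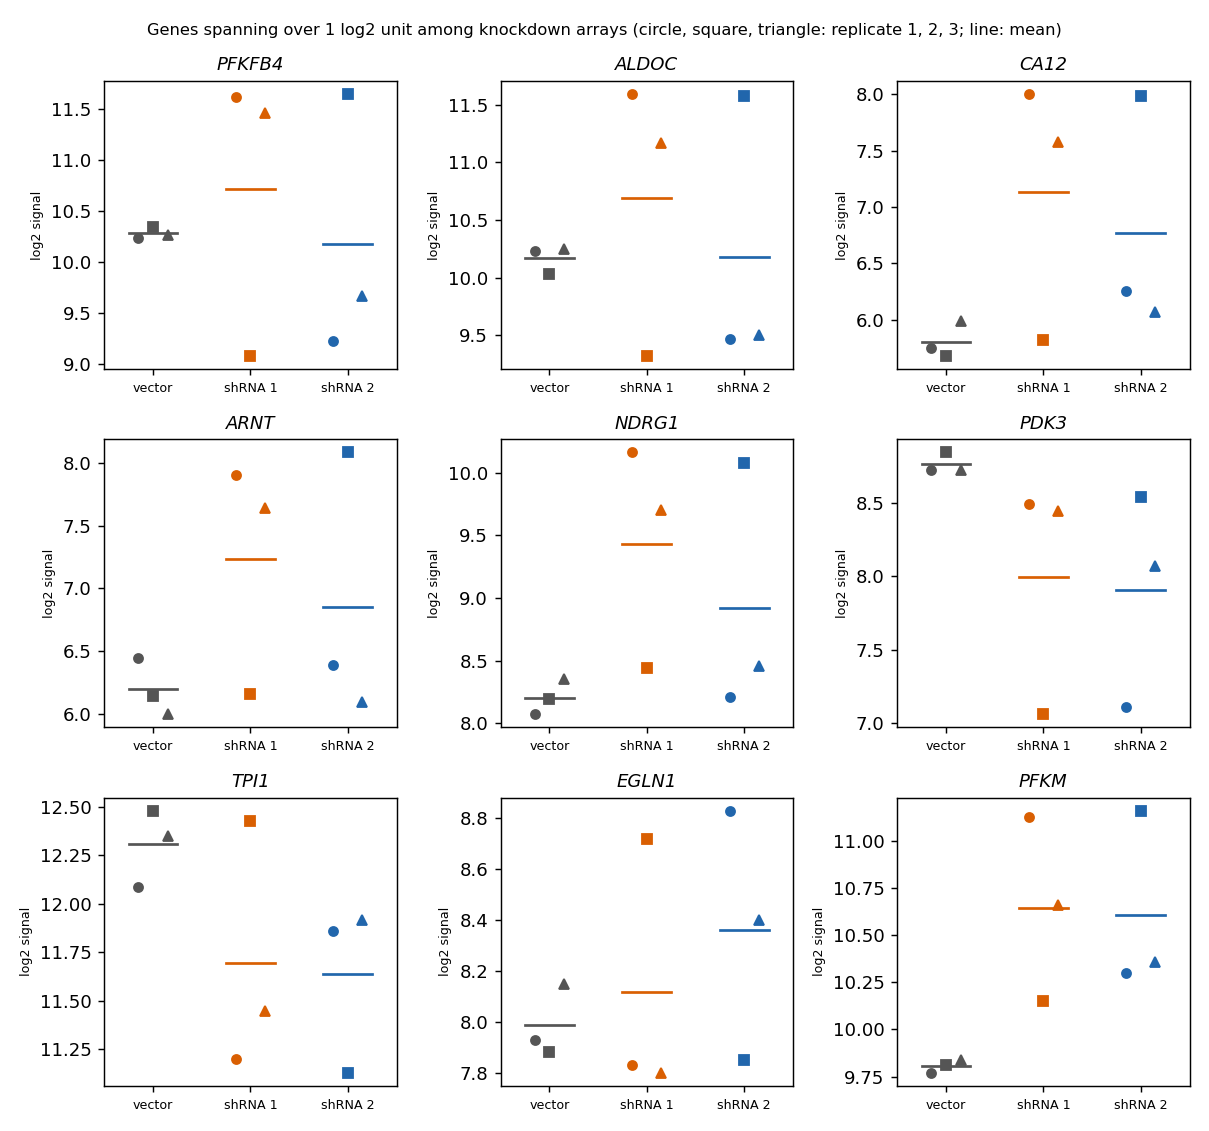
Log2 signal (vertical axis, a separate range in each panel that does not start at 0) of the 9 genes whose 6 knockdown arrays spanned over 1 log2 unit, with 3 arrays per group as points and the group mean as a line. In each panel the square of shRNA 1 lies apart from its circle and triangle, and the square of shRNA 2 lies beyond its own circle and triangle on the other side, though for PDK3 the shRNA 2 triangle is nearer to the square than to the circle.

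PFKFB4, a relative of PFKFB3 and a strong hypoxia target, read 10.24, 10.35 and 10.27 with vector. It read 11.62, 9.08 and 11.46 with shRNA 1 and 9.23, 11.65 and 9.67 with shRNA 2. Thus shRNA 1 replicates 1 and 3 and shRNA 2 replicate 2 were above vector, and the other 3 knockdown arrays were below it. ALDOC, the aldolase of brain, read 10.23, 10.03 and 10.25 on the vector arrays, 11.59, 9.32 and 11.17 on those of shRNA 1 and 9.47, 11.57 and 9.50 on those of shRNA 2. The same arrays were high and low as for PFKFB4, on either side of vector. The means over both shRNAs, 0.16 for PFKFB4 (interval from -1.33 to 1.66) and 0.27 for ALDOC (-1.07 to 1.61), therefore average opposite values and describe no array. On 7 arrays PFKFB4 was at 1.25 with shRNA 1 and -0.83 with shRNA 2 (difference -2.09, limma adjusted p = 7.43e-05), and ALDOC at 1.21 and -0.68 (difference -1.89, limma adjusted p = 0.000116). The 7 arrays were chosen by their profiles, and the genes by their spread on the same arrays. A large difference was thus built into this fit, so these p-values are no test of a difference between the shRNAs.

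CA12, a cell-surface carbonic anhydrase that buffers pH, read 5.75, 5.68 and 5.99 on the vector arrays, 8.00, 5.82 and 7.58 on those of shRNA 1 and 6.26, 7.98 and 6.07 on those of shRNA 2. NDRG1, a stress-induced growth regulator, read 8.07, 8.19 and 8.35 on the vector arrays, 10.16, 8.44 and 9.70 on those of shRNA 1 and 8.21, 10.08 and 8.46 on those of shRNA 2. ARNT read 6.45, 6.15 and 6.0 on the vector arrays, 7.90, 6.16 and 7.64 on those of shRNA 1 and 6.39, 8.08 and 6.10 on those of shRNA 2. In all 3 genes shRNA 1 replicates 1 and 3 and shRNA 2 replicate 2 were well above vector, and the other knockdown arrays lay within about the vector range or little above it. On 7 arrays the changes with shRNA 1 were 1.98 for CA12, 1.73 for NDRG1 and 1.57 for ARNT, against 0.36, 0.13 and 0.04 with shRNA 2, and each difference was called (adjusted p = 0.000303, 0.000378 and 0.000482). These calls have the same limit as those of PFKFB4 and ALDOC.

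PFKM, the muscle phosphofructokinase subunit, was higher than vector on all 6 arrays but by unequal amounts. It read 9.77, 9.81 and 9.84 on the vector arrays, 11.13, 10.15 and 10.66 on those of shRNA 1 and 10.30, 11.16 and 10.36 on those of shRNA 2, a difference of 0.82 (adjusted p = 0.0564) that was called on 7 arrays at 0.81 (adjusted p = 0.00167). TPI1, triosephosphate isomerase, was lowest on the arrays where those genes were highest: it read 12.09, 12.48 and 12.35 on the vector arrays, 11.20, 12.43 and 11.45 on those of shRNA 1 and 11.86, 11.13 and 11.92 on those of shRNA 2. Its change was -0.64 on 9 arrays (adjusted p = 0.168) and -0.70 on 7 (adjusted p = 0.00325).

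The last of the 9 genes moved on the other knockdown arrays. PDK3, a kinase that shuts off pyruvate dehydrogenase, read 8.72, 8.84 and 8.72 on the vector arrays, 8.49, 7.06 and 8.44 on those of shRNA 1 and 7.11, 8.54 and 8.07 on those of shRNA 2, and was lowest on shRNA 1 replicate 2 and shRNA 2 replicate 1. The second PDK3 probe, ILMN_1776582, changed by -0.38 in a fit of all probes (limma adjusted p = 0.364), against -0.81 for the main probe. On 7 arrays the main probe was called at -0.73 (adjusted p = 0.0237) and the second, at -0.32, was not (0.166). EGLN1, the main HIF prolyl hydroxylase, read 7.93, 7.88 and 8.15 on the vector arrays, 7.83, 8.72 and 7.80 on those of shRNA 1 and 8.83, 7.85 and 8.40 on those of shRNA 2. It was above the vector range on shRNA 1 replicate 2 and shRNA 2 replicates 1 and 3, and below it on the others. On 7 arrays 18 members differed between the shRNAs, 10 higher with shRNA 2 and 8 lower, beside 41.2% of all genes (19.3% higher and 21.9% lower). The lower ones, besides those above, were HK1 at -0.58 and PFKM at -0.57, and the higher ones were EGLN1 at 0.80, ENO1 at 0.66, PFKP at 0.64, EGLN3 at 0.60, TPI1 at 0.56, P4HA1 at 0.53, GPI at 0.52, KDM3A at 0.50, BNIP3 at 0.48 and PGK1 at 0.44. Of the 8 members called with both shRNAs against vector, BNIP3 was thus among the 18 (limma adjusted p = 0.0463). The other 7 were not, with differences on 7 arrays of 0.08 for ANGPTL4, -0.04 for HK2, 0.11 for LDHB, -0.06 for VEGFA, 0.08 for PFKFB3, 0.29 for EPAS1 and -0.41 for ENO2. With arrays chosen by their profiles, none of these calls is a test of a difference between the shRNAs.

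Other genes of the pathway, from lists made for this comparison with earlier results known, are read beside the same 16.6% of all genes called. Of 40 further genes of glucose metabolism 27 were tested, and 3 rose and 1 fell, with a median of 0.22. ENO3, the muscle enolase, rose by 1.20 (SE 0.17), the mitochondrial pyruvate carrier subunit gene MPC1 by 0.54 (SE 0.13) and PDHB, a pyruvate dehydrogenase subunit, by 0.43 (SE 0.10), while PCK2, the mitochondrial phosphoenolpyruvate carboxykinase, was at -1.02 (SE 0.15). Of 35 further HIF targets 29 were tested, and 3 rose and 2 fell, with a median of 0.29. HMOX1, heme oxygenase, rose by 1.37 (SE 0.34), with raw signals of 123 to 250 and detection on 8 of 9 arrays. It read 5.61 to 7.24 on the knockdown arrays. INSIG2, which restrains sterol synthesis, rose by 1.36 (SE 0.15) and the nuclear receptor gene RORA, named after its values were seen, by 0.55 (SE 0.14). The secreted stanniocalcin gene STC1 was at -1.80 (SE 0.18) and TMEM45A at -0.73 (SE 0.16), and both were lower on every knockdown array. Of 16 genes that control HIF 15 were tested, and 3 rose and 1 fell, with a median of -0.01. EGLN2, a HIF prolyl hydroxylase, rose by 0.58 (SE 0.11), VHL by 0.62 (SE 0.17) and ELOB, a partner of VHL in its ligase, by 0.54 (SE 0.12). ARNT2, the neural relative of ARNT, was at -1.02 (SE 0.29) and read 9.01, 8.91 and 8.83 on the vector arrays, 7.54, 8.44 and 7.37 on those of shRNA 1 and 8.35, 7.38 and 8.34 on those of shRNA 2. It was lowest on the 3 arrays on which ARNT was highest. On 7 arrays 9 and 3 of the glucose list, 12 and 2 of the HIF targets and 3 and 2 of the HIF control list were higher and lower, beside 20.7% of all genes higher and 20.5% lower in that fit.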

How the data were processed

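RNA of 9 BON-1 samples was measured on 1-colour Illumina arrays. The deposited table holds an intensity for each of 47231 probes, not normalized per the file headers, and a detection p-value beside each deposited signal. The submitters' processing notes name GenomeStudio, without settings. The authors' value table, of linear intensity with unstated method, has columns with medians of 7.93 to 7.96, looks background-subtracted and quantile normalized, and served as an alternative. Signals were background-corrected with nec (limma 3.58.1, R 4.3.3, offset 16), quantile normalized and put on a log2 scale. The filter kept 22011 probes, those detected (p under 0.05) on 3 or more arrays. Probes were named through the platform annotation, and a gene was represented by its probe of highest average signal (12498 genes). All 9 arrays entered 1 limma fit with 3 group means, and p-values were adjusted by Benjamini-Hochberg over all genes. The steps were tested on simulated data. Groups come from sample titles. How far the sets of cells were independent cultures is not given in the labels, so the p-values reflect only variation among these samples, and the number of arrays limits precision. The members, the lists and the tests were chosen with earlier results of these data known. All members were accounted for, per-array values were given for called members and for those with a wide spread, and from the other lists the 4 called genes of largest change and up to 2 of opposite direction were named. The 7-array fit was added after correlations between arrays were seen. Alternatives covered background, scaling, filter, probe choice, variance model, weights, a replicate block and each array left out.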

Additional observations from a re-analysis of the deposited data

How the results depend on the processing

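The count of called members, 8 with both shRNAs, 7 with shRNA 1, 5 with shRNA 2 and 0 between the shRNAs, moved by over 1.5 times under 4 kinds of alternative, and no called change turned its direction under any that was run. Median centring gave 4, 3 and 3 called members for the 3 comparisons with vector, and moved the calls among all genes for both shRNAs from 1067 higher and 1011 lower to 613 and 1432. Array weights gave 21, 22, 15 and 12 members, and 5588, 6186, 4041 and 4345 of all genes against 2078, 1395, 1081 and 0. The 7 arrays gave 21, 20, 18 and 18 members, and 5151, 5486, 4418 and 5152 of all genes. The replicate block gave 1 member with each shRNA alone, and 6 with both, with 1106, 449 and 282 of all genes for the 3 comparisons with vector. Leaving out 1 array gave 2 to 12, 1 to 10, 1 to 7 and 0 to 0 members, and 489 to 2583, 138 to 2153 and 118 to 1599 of all genes. The replicate numbers were not shown to pair the samples: same-numbered shRNA arrays had correlations of deviations from their group means of -0.71, -0.89 and -0.24, vector and shRNA arrays 0.03 to 0.15, and 3 of 9 arrays correlated best with an array of their own number. The files used here name no slide, so a slide block was not run. Member counts stayed within 1.5 times when background was left uncorrected or the offset raised to 50, and with cyclic loess, the authors' values, stricter or no dim-probe filters, other probe choices, a trend or robust variance, or fits of the compared groups alone. Why the counts moved was not tested: the cause was not tested for median centring, array weights or the block, while leaving out arrays changes the number of samples. Signals near background limit the sizes given for CA12, ARNT, KDR and HMOX1.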
